A study of Mus musculus with 12 samples.

Results

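The 10 genes described here are immediate early and fasting-responsive genes of the mouse liver, namely Sik1, Fos, Jun, Junb, Egr1, Ier2, Ier3, Dusp1, Klf6 and Nr4a1. They were chosen by name, with earlier results of these data known. All 10 were found among 22180 genes measured by probe sets that carry 1 gene symbol, each with 1 probe set. Total liver RNA was hybridised to whole-transcript arrays, 1 mouse per array, from 12 male C57BL/6 mice in 4 groups of 3. The groups were Ahnak-deficient (KO) mice on a high fat diet (HFD), wild-type (WT) mice on HFD, KO mice on regular chow and WT mice on regular chow. HFD was D12492, with 60% fat, and both diets were given for 8 weeks to weight-matched groups. Which part of Ahnak is deleted, the age of the mice, and the hour and feeding state at which livers were taken are not stated in the labels. All values are the deposited log2 signals, on which a difference of 1 is a doubling.

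Immediate early genes are transcribed within minutes of a stimulus from factors already present in the cell, chiefly SRF with its ternary complex partners downstream of MAP kinases, and CREB downstream of cAMP. Their transcripts are short lived, so a single tissue sample shows a brief window of signalling. In liver, glucagon acting through cAMP, CREB and the CRTC coactivators induces Sik1 and Nr4a1 in fasting together with gluconeogenic genes, whereas growth factors, stress and tissue handling induce Fos, Jun, Egr1 and others.

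Promoters in the RefSeq table used here (GRCm38.p6, 250 bases before to 50 after a transcript's start) were matched for 7 of the 10 genes. The 4 printed are those that hold the short form of the cAMP response element, TGACG or its reverse complement, and capitals mark every motif match described below. The Nr4a1 window lies at a transcript start inside the gene, whose annotated range begins at chr15:101253902.
Fos, chr12:85473640-85473939, + strand: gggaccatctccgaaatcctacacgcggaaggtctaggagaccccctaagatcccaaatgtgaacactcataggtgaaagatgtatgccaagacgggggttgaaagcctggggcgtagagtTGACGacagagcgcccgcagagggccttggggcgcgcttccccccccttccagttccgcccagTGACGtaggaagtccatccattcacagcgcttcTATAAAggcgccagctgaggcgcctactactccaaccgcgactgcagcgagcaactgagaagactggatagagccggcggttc
Nr4a1, chr15:101266596-101266895, + strand: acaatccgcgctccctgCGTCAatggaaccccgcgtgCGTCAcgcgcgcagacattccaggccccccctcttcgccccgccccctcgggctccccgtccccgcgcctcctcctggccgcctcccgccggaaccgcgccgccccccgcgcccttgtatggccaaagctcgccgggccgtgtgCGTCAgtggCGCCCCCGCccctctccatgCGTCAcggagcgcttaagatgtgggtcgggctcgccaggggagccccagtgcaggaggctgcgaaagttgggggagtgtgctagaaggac
Dusp1, chr17:26508423-26508722, - strand: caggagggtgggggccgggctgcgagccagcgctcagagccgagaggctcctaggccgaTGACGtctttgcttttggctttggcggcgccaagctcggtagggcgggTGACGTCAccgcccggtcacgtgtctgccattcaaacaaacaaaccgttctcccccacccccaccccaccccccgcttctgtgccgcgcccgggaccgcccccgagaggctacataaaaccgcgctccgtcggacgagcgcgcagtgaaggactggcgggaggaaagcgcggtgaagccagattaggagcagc
Junb, chr8:84978699-84978998, - strand: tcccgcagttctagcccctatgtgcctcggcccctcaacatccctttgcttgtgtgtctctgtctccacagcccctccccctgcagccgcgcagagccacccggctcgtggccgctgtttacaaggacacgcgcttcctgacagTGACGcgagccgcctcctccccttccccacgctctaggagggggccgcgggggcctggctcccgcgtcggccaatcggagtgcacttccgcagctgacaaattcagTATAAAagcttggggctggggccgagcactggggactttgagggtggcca
Both strands were searched, and positions count from 1 at the start of the transcript, with bases before it negative and the leftmost base of a match given. The short element began at -129 and -66 in Fos. In Nr4a1 it lay on the minus strand at -233, -213, -69 and -40. In Dusp1 it lay at -191 and again at -143, where it is part of a full palindromic element TGACGTCA that also holds the short one on the minus strand. In Junb it began at -106. Among all 32851 promoters of the table, 20.81% hold TGACG and 1.79% hold TGACGTCA. Nr4a1 also held the EGR motif GCGNGGGCG at -60 on the minus strand, a motif present in 5.55% of all promoters. TATAAA, present in 13.62% of promoters, began at -33 in Fos and at 1 in Junb. None of the 7 windows, which include those of Jun, Klf6 and Ier3, held the CArG box of SRF, the AP-1 motif TGANTCA or the NR4A motif AAAGGTCA. These motifs are present in 1.63%, 7.81% and 1.51% of all promoters, so their absence from 7 windows does not set these genes apart. Sites further than 250 bases upstream were not searched. A match describes letters only, and binding was not measured.

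Alb, the plasma protein gene that defines hepatocytes, measured 14.05 to 14.16 on all 12 arrays, near the highest value of the table (14.36), so its narrow range is no check of the livers. Hnf4a, a hepatocyte transcription factor gene, measured 12.57 to 12.85, and Ass1, a urea cycle gene, 6.76 to 8.31. The first principal component set the 3 WT livers on HFD apart, at 30.0 to 32.3, from the other 9, at -18.5 to -3.95. Ahnak differed by -0.48 ± 0.14 (SE) between KO and WT livers on HFD (limma, adjusted p = 0.0483), and on chow its 3 values were 6.38, 6.74 and 6.66 in KO livers against 6.50, 6.83 and 6.58 in WT livers. Whether its probes lie in the deleted part is not known, so this does not check the genotype. In liver tissue, fewer cells of a type and less RNA per cell cannot be told apart.

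Sik1 and Egr1 were higher in KO than in WT livers on HFD, by 3.29-fold and 2.69-fold, and Nr4a1 had a similar order of groups without passing the test. Fos, Jun, Junb, Ier2 and Ier3 differed between the genotypes by at most 0.24 on the log2 scale on this diet. Fos and Ier2 were dim, with means of 6.37 and 6.60 over the 12 livers, against a median level of 6.17 over all genes. Whether a low signal narrowed their differences was not tested. The 2 higher genes make up the full count of members past adjusted p = 0.05 here, out of 10, while 3.89% of all genes were called higher and 6.62% lower. The median difference over the 10 genes was 0.14, against 0.00 over all genes tested.

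**Figure D1:**
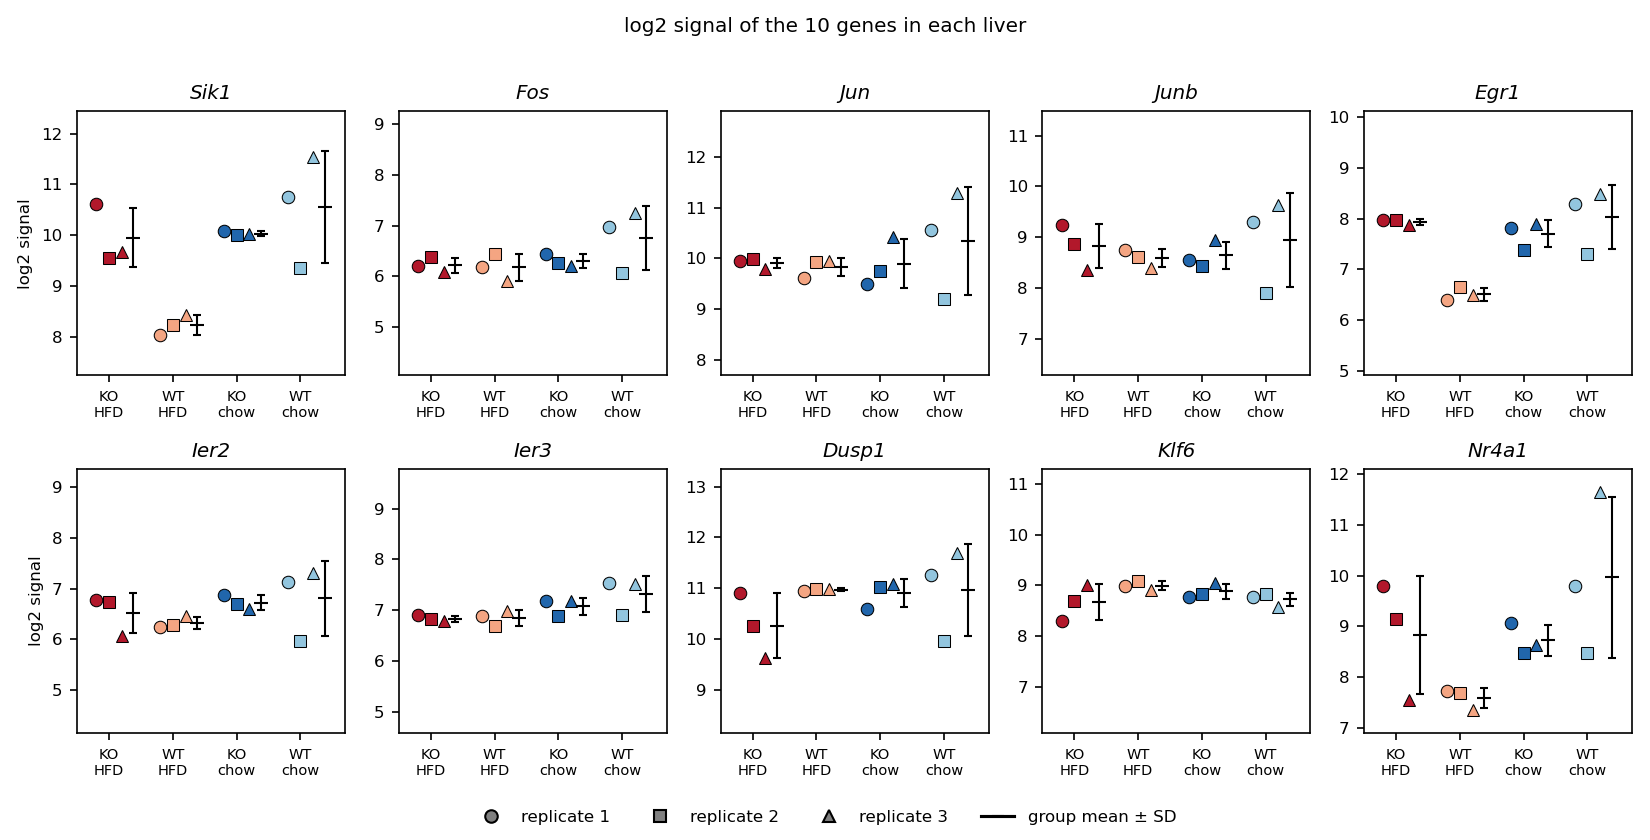
log2 signal of each of the 10 genes in every liver (points), with the mean and SD of each group of 3 mice. From left to right the groups are KO HFD, WT HFD, KO chow and WT chow, and every panel spans the same number of log2 units; Sik1 and Egr1 are lowest in the WT HFD livers, and the WT chow livers are widely spread in most panels.

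Sik1 encodes salt-inducible kinase 1, which is induced by cAMP and phosphorylates CRTC coactivators, limiting CREB-driven transcription. Its signal on HFD was 10.62, 9.56 and 9.67 in KO livers, against 8.03, 8.24 and 8.43 in WT livers. The genotypes did not overlap, and the lowest KO liver was above the highest WT liver. On chow it was 10.09, 10 and 10.02 in KO livers, against 10.76, 9.36 and 11.54 in WT livers. The WT chow livers lay on both sides of the KO chow livers, and WT HFD livers were below every other liver. The difference on HFD was 1.72 ± 0.43 (SE, limma, adjusted p = 0.023), and on chow it was -0.52 ± 0.43 (adjusted p = 0.846). The HFD call was lost without KO HFD liver 1 (adjusted p = 0.086) and without WT HFD liver 1, 2 or 3 (0.0779, 0.0618 and 0.0521), with a difference of 1.38 to 1.91 over all livers left out in turn.

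Egr1 encodes a zinc finger transcription factor induced through SRF and ternary complex factors by growth factors and insulin. On HFD it measured 7.98, 7.97 and 7.87 in KO livers, against 6.39, 6.65 and 6.49 in WT livers. These groups were separated by more than 1 log2 unit with little spread in either. On chow it measured 7.82, 7.39 and 7.89 in KO livers, against 8.29, 7.31 and 8.48 in WT livers, which overlap. Egr1 differed between genotypes by 1.43 ± 0.24 on HFD (limma, adjusted p = 0.00273) and by -0.32 ± 0.24 on chow (adjusted p = 0.835). Leaving out each liver in turn kept the HFD call, with an adjusted p of at most 0.014.

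Nr4a1 encodes an orphan nuclear receptor induced by glucagon and cAMP that raises gluconeogenic gene expression in mouse liver. On HFD it measured 9.80, 9.15 and 7.55 in KO livers, against 7.72, 7.68 and 7.36 in WT livers. KO HFD liver 3 fell inside the WT range, so the groups overlapped. On chow it measured 9.07, 8.48 and 8.63 in KO livers, against 9.79, 8.48 and 11.64 in WT livers. The genotype difference was 1.25 ± 0.67 on HFD (limma, adjusted p = 0.29) and -1.24 ± 0.67 on chow (adjusted p = 0.752), and neither passed.

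The AP-1 subunit genes did not pass between genotypes on either diet. Fos, whose product pairs with JUN proteins, measured 6.20, 6.38 and 6.09 in KO livers on HFD, against 6.18, 6.44 and 5.92 in WT livers on HFD. Its difference was 0.04 ± 0.25 (limma, adjusted p = 0.946), and the 2 groups covered nearly the same range. Jun, the main partner of FOS, ran from 9.79 to 9.99 in KO livers and from 9.62 to 9.95 in WT livers on HFD, a difference of 0.08 ± 0.40 (adjusted p = 0.94). Junb, a subunit that often opposes JUN in growth control, ran from 8.36 to 9.24 in KO livers and from 8.40 to 8.74 in WT livers on HFD, a difference of 0.24 ± 0.36 (adjusted p = 0.754). None of these differences exceeded the spread between mice.

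The remaining genes also did not pass on HFD. Ier2, an immediate early gene of a nuclear protein, ran from 6.07 to 6.78 in KO livers and from 6.24 to 6.47 in WT livers (0.20 ± 0.29, limma, adjusted p = 0.746). Ier3, whose product affects survival and stress signalling, differed by -0.01 ± 0.16 (adjusted p = 0.974). Dusp1, the phosphatase that switches off MAP kinases and is induced by glucocorticoids as well as by cAMP, measured 10.90, 10.26 and 9.62 in KO livers, against 10.95, 10.99 and 10.98 in WT livers. Every KO value was below every WT value, but the difference of -0.71 ± 0.39 did not pass (adjusted p = 0.296). Its SE pools the spread of all 4 groups. The SDs were 0.64 in KO HFD, 0.02 in WT HFD, 0.28 in KO chow and 0.90 in WT chow livers. Without WT chow liver 2 the Dusp1 difference on HFD was -0.71 ± 0.26 (limma, adjusted p = 0.122). Klf6, a zinc finger factor of the Kruppel-like family, measured 8.30, 8.69 and 9.01 in KO livers, against 8.98, 9.08 and 8.91 in WT livers (-0.32 ± 0.15, adjusted p = 0.223). Klf6 passed without KO HFD liver 3, at -0.49 ± 0.13 (adjusted p = 0.046). The groups did not overlap for Sik1 and Egr1, both higher in KO livers, and for Dusp1, lower in KO livers, while 13% of all genes were separated upward and 15.6% downward.

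On chow, 0 of the 10 genes passed between genotypes in limma, and 0 had an unadjusted p under 0.05, where 0.00902% and 7.02% of all genes did. The difference was below 0 for 9 of the 10, with Klf6 the exception at 0.15 ± 0.15, and the median was -0.31, against -0.00 over all genes, of which 51% were below 0. The 10 genes were read in the same livers, so these 9 are not separate observations. The groups overlapped for all 10, where 13.2% of all genes did not overlap.

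**Figure D2:**
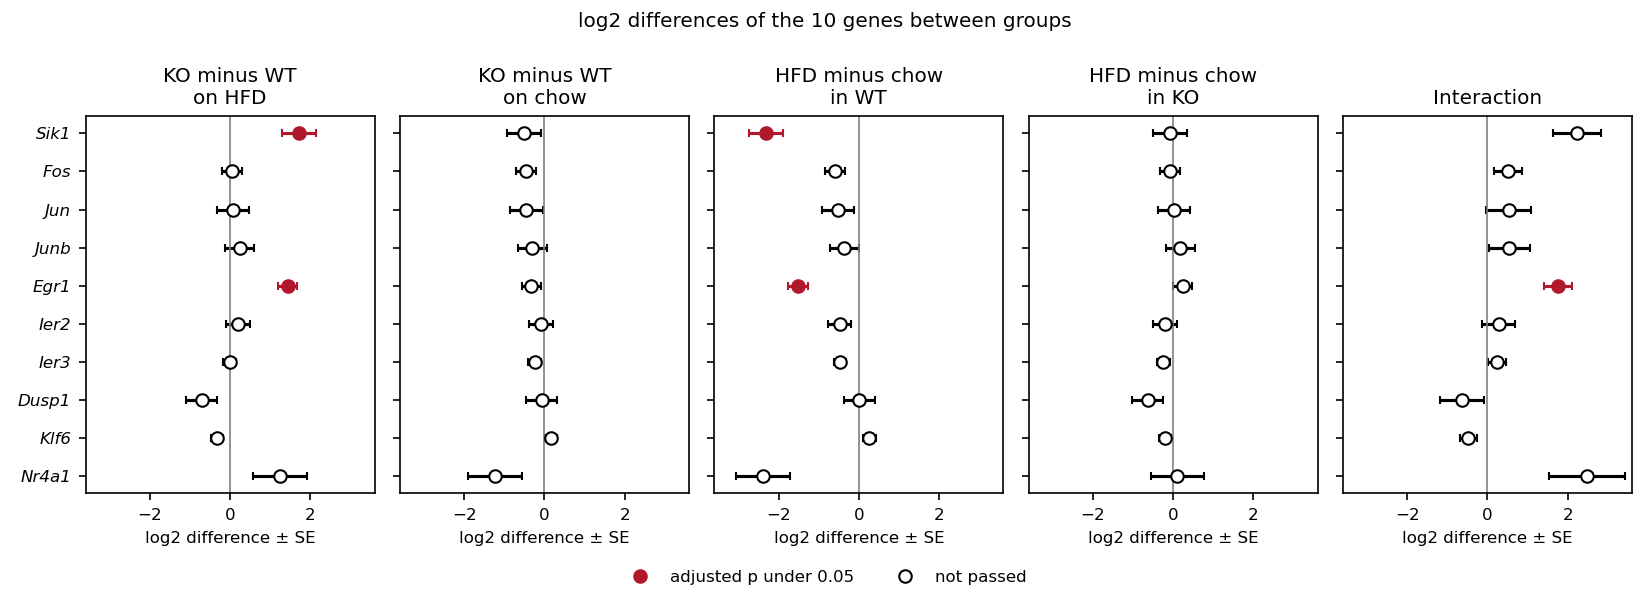
log2 differences of the 10 genes in the 5 comparisons, with the SE of the limma fit as error bars and genes past adjusted p = 0.05 filled. Sik1 and Egr1 pass as higher in KO livers on HFD and as lower on HFD in WT livers, and Egr1 alone passes in the interaction.

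In WT mice, HFD livers had less Sik1 and Egr1 than chow livers, by 4.99-fold and 2.86-fold. Of the 10 genes, 2 passed as lower and 0 as higher, where 2.94% and 4.02% of all genes were called, and 5 had an unadjusted p under 0.05, where 20.6% of all genes did. Sik1 differed by -2.32 ± 0.43 (limma, adjusted p = 0.00702) and Egr1 by -1.52 ± 0.24 (adjusted p = 0.00309). Both calls held when each liver was left out in turn, with an adjusted p of at most 0.03 for Sik1 and 0.0160 for Egr1. Nr4a1 had the largest difference of the 10, at -2.38 ± 0.67, and narrowly missed the threshold (adjusted p = 0.0531). This comparison and that of KO with WT livers on HFD share the 3 WT HFD livers, so low values in those livers enter both.

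The other 7 genes did not pass in the diet comparison of WT livers. Ier3 differed by -0.47 ± 0.16 (limma, adjusted p = 0.0997), Fos by -0.59 ± 0.25 (adjusted p = 0.196), Ier2 by -0.48 ± 0.29 (adjusted p = 0.4), Jun by -0.51 ± 0.40 (adjusted p = 0.534) and Junb by -0.36 ± 0.36 (adjusted p = 0.651). Dusp1 differed by 0.01 ± 0.39 (adjusted p = 0.996) and Klf6 by 0.27 ± 0.15 (adjusted p = 0.364). Every HFD value was below every chow value for Sik1, Egr1 and Nr4a1, and above every chow value for Klf6, while 12.2% and 14.2% of all genes were separated in those directions. The median of the 10 differences was -0.50, against 0.00 over all genes.

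These values rest on a widely spread group of WT chow livers. Fos measured 6.98, 6.06 and 7.26 in them, Jun 10.56, 9.19 and 11.28, Junb 9.29, 7.90 and 9.64, and Dusp1 11.25, 9.95 and 11.70. WT chow liver 2 was the lowest of its 3 for 9 of the 10 genes, all but Klf6, and it was the lowest for 32.4% of all genes. WT chow liver 3 was the highest for 8 of the 10, all but Ier3 and Klf6, and for 32.3% of all genes. Within the group, highest and lowest differed by 8.93-fold for Nr4a1, 4.53-fold for Sik1 and 4.28-fold for Jun. Without WT chow liver 2, 7 of the 10 genes passed as lower on HFD, where 634 of 22180 genes were called lower. They were Sik1 at -2.92, Nr4a1 at -3.13, Egr1 at -1.88, Jun at -1.09, Fos at -0.94, Ier2 at -0.90 and Ier3 at -0.68 (limma, adjusted p from 8.45e-05 to 0.0324). Junb missed the threshold at -0.88 (adjusted p = 0.0524), and Dusp1 (-0.50) and Klf6 (0.32) did not pass. Without WT chow liver 3, Sik1 and Egr1 were the 2 that passed, where 318 of 22180 genes were called lower, and Nr4a1 had an adjusted p of 0.157.

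**Figure D3:**
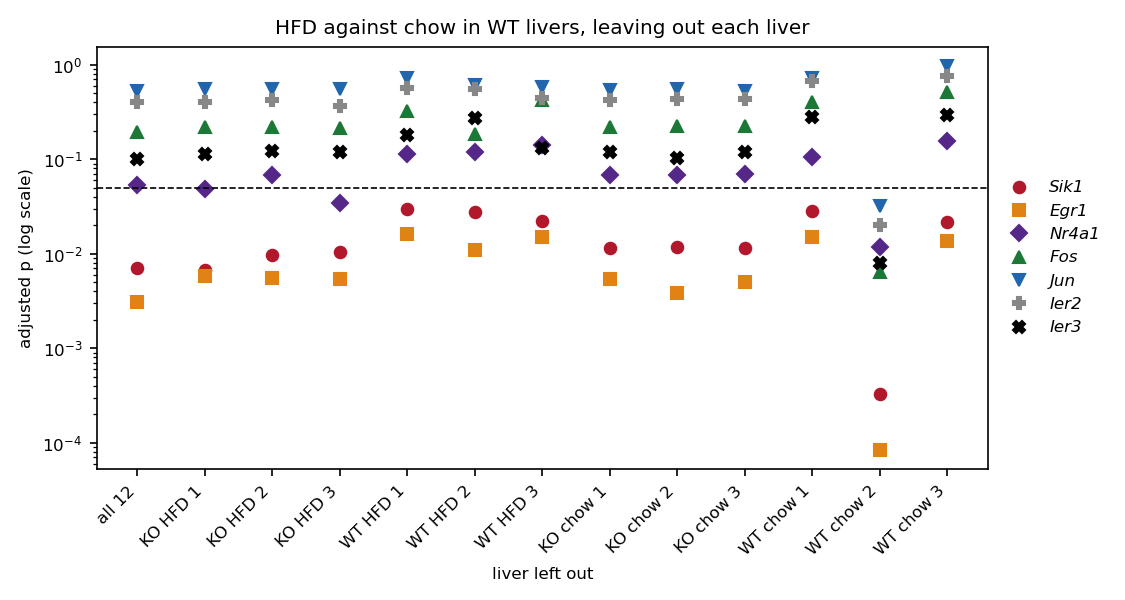
Adjusted p (log axis) of 7 genes for HFD against chow in WT livers, with all 12 livers and with each left out in turn; the dashed line marks 0.05. Sik1 and Egr1 stay below the line throughout, Nr4a1 moves across it, and Fos, Jun, Ier2 and Ier3 fall below it when WT chow liver 2 is left out.

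In KO mice, 0 of the 10 genes passed between diets in limma and 0 had an unadjusted p under 0.05, where 0.243% and 8.51% of all genes did. Sik1 differed by -0.08 ± 0.43 (adjusted p = 0.977), Egr1 by 0.24 ± 0.24 (adjusted p = 0.848) and Nr4a1 by 0.10 ± 0.67 (adjusted p = 0.983). The values of the 2 diets overlapped for all 10 genes, where 13.8% of all genes did not overlap. The median of the 10 was -0.08.

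The interaction asks whether KO minus WT on HFD differs from KO minus WT on chow. Egr1 passed, at 1.75 ± 0.34 (limma, adjusted p = 0.0166), where 1.43% of all genes were called higher and 2.1% lower, and it kept the call without each liver in turn, at an adjusted p of at most 0.0448. Sik1 missed the threshold at 2.24 ± 0.60 (adjusted p = 0.0679) and passed without WT chow liver 2, at 2.83 ± 0.39 (adjusted p = 0.00355). Nr4a1 had the largest interaction, 2.49 ± 0.94, with an adjusted p of 0.189. The other 7 ranged from -0.64 for Dusp1 to 0.54 for Junb and did not pass. The interaction uses all 12 livers and so shares the WT HFD livers with the comparisons above.

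The 10 genes varied more between mice of one group than most genes did. The within-group SD, pooled over the 4 groups, was 1.00 for Nr4a1, 0.63 for Sik1, 0.59 for Jun, 0.57 for Dusp1, 0.54 for Junb and 0.43 for Ier2, against a median of 0.15 over all genes. Fos (0.36) and Egr1 (0.35) followed, and Ier3 and Klf6 were lowest at 0.21 each. For 8 of the 10 the SD stood at or above the 96.5 percentile of all genes, with Ier3 at the 78.2 percentile and Klf6 at the 75.6 percentile. The median SD of the 10 was 0.38 in KO HFD livers, 0.16 in WT HFD livers, 0.22 in KO chow livers and 0.82 in WT chow livers, where all genes had medians of 0.14, 0.12, 0.12 and 0.13. The KO HFD group had a similar order across genes: liver 3 was the lowest for 8 of the 10, all but Sik1 and Klf6, and liver 1 the highest for 7. Over all genes, KO HFD liver 3 was the lowest for 34.0% and KO HFD liver 1 the highest for 32.8%. Over all 12 livers Nr4a1 spanned a 19.4-fold range and Sik1 11.4-fold, while Ier3 spanned 1.80-fold and Klf6 1.72-fold.

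Each gene was centred on its mean over the 12 livers, and the 10 centred values were averaged in each liver. This mean was 0.23, 0.01 and -0.35 in KO HFD livers, -0.46, -0.38 and -0.45 in WT HFD livers, 0.06, -0.06 and 0.17 in KO chow livers, and 0.60, -0.44 and 1.06 in WT chow livers. The mean of WT chow liver 2 lay within the range of the WT HFD livers, but single genes did not follow it. Sik1, Egr1 and Nr4a1 were above all 3 WT HFD livers in that liver, at 9.36, 7.31 and 8.48 against at most 8.43, 6.65 and 7.72. Jun, Junb, Ier2, Dusp1 and Klf6 were below all 3, at 9.19, 7.90, 5.97, 9.95 and 8.82 against at least 9.62, 8.40, 6.24, 10.95 and 8.91. Fos and Ier3 were the 2 within the range.

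**Figure D4:**
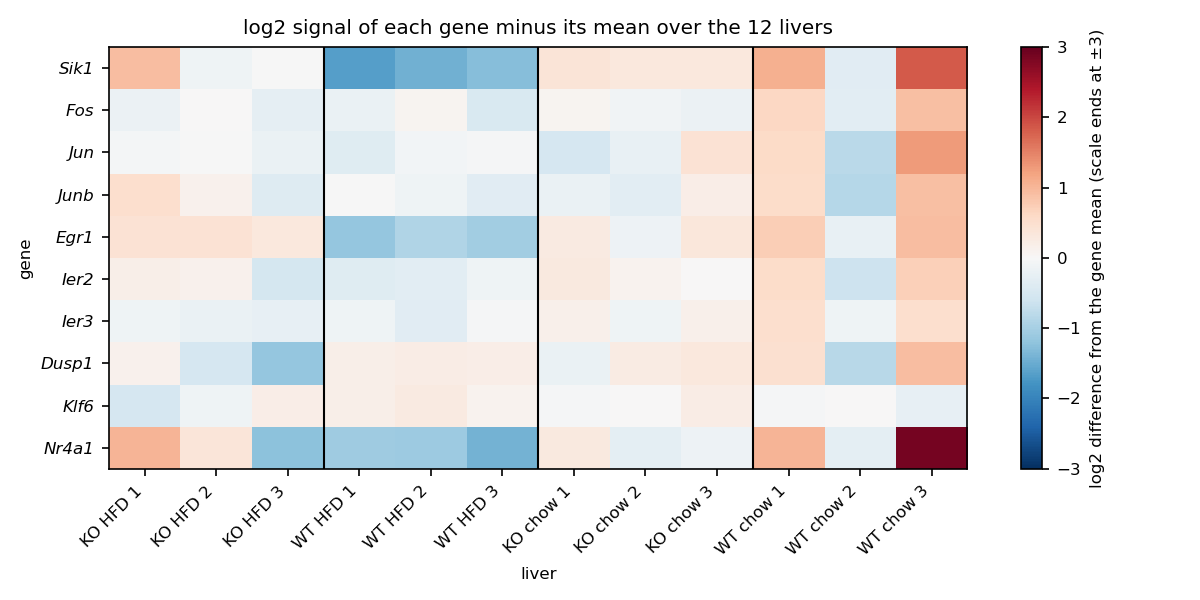
Each gene's log2 signal minus its mean over the 12 livers, by liver, with red above and blue below the mean. Sik1, Egr1 and Nr4a1 are blue in the 3 WT HFD livers, while WT chow liver 2 is below WT chow livers 1 and 3 for every gene but Klf6.

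Other immediate early genes were described from 3 lists, whose shares of called genes stand beside 3.89% higher and 6.62% lower over all genes in KO against WT livers on HFD. Among 9 other AP-1 and bZIP genes, 1 was higher in KO livers on HFD, Jund, an AP-1 subunit made constitutively in many cells (0.50 ± 0.12, limma, adjusted p = 0.0171), a call lost without KO HFD liver 2 or WT HFD liver 1 or 3. Fosb, the closest relative of Fos, differed by -0.11 ± 0.16, and Atf3, a stress-induced factor, by -0.61 ± 0.28, and neither passed. Fosb was dim, at 5.61 to 6.48 over the 12 livers. Among 18 other immediate early transcription factor genes, 1 was higher and 1 lower in KO livers on HFD, which is near the shares over all genes. The higher one was Nab2, the EGR1 corepressor that EGR1 itself induces. Nab2 measured 8.69, 8.74 and 8.45 in KO livers on HFD, against 8.14, 7.94 and 7.76 in WT livers on HFD. It differed by 0.68 ± 0.20 (adjusted p = 0.0495), a call lost when any 1 of 9 livers was left out. Nab2 was also lower on HFD than on chow in WT livers, by -0.83 ± 0.20 (adjusted p = 0.0267), a call lost without WT HFD liver 2 or 3 or WT chow liver 1 or 3.

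The lower one was Klf2, a flow-induced factor of endothelial cells, at -0.40 ± 0.09 (limma, adjusted p = 0.0132, 0.0548 without WT HFD liver 3). Nr4a2 and Nr4a3, the paralogs of Nr4a1, differed by 0.45 ± 0.32 and -0.18 ± 0.26 on HFD and did not pass. Their highest values, 8.08 and 6.87, were both in WT chow liver 3, the liver with the highest Nr4a1. Nr4a3 was dim in every other liver, at 5.45 to 5.97. Among 31 immediate early signalling and mRNA decay genes, 3 were lower and 0 higher in KO livers on HFD, also near the shares over all genes (3.89% higher and 6.62% lower). Spry4, a feedback inhibitor of receptor tyrosine kinase signalling, differed by -1.64 ± 0.11 (adjusted p = 6.22e-06). Dusp6, an ERK phosphatase, differed by -0.61 ± 0.16 (adjusted p = 0.0267, 0.105 without WT HFD liver 2), and Rhob, a small GTPase, by -0.47 ± 0.13 (adjusted p = 0.0311, 0.104 without KO HFD liver 3). Spry4 measured 7.49, 7.86 and 7.61 in KO livers on HFD, against 9.22, 9.36 and 9.30 in WT livers on HFD, and the WT HFD livers, where Egr1 was lowest, had the 3 highest Spry4 values of the 12. In WT livers, Spry4 was higher on HFD than on chow (1.32 ± 0.11, adjusted p = 5.14e-05) and Btg1, an antiproliferative gene, lower (-0.81 ± 0.15, adjusted p = 0.0071), where 4.02% and 2.94% of all genes were called. Without WT chow liver 2, 7 of the 31 were lower, where 634 of 22180 genes were called lower.

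The pathways upstream of the 10 genes were described from 2 lists, where 3.89% of all genes were higher and 6.62% lower in KO against WT livers on HFD. Of 23 genes of CREB, CRTC and salt-inducible kinase signalling, 1 passed in KO against WT livers on HFD, Prkar1a, a regulatory subunit of protein kinase A (0.33 ± 0.10, limma, adjusted p = 0.0453, lost when any 1 of 9 livers was left out). Sik2 differed by -0.04 ± 0.09, Creb1 by -0.02 ± 0.10 and Crtc2 by 0.27 ± 0.10 (adjusted p = 0.125). Of 16 genes of SRF and MAP kinase signalling, 3 were higher in KO livers on HFD, Egfr, Braf and Elk4, and 1 lower, Mapk9, and the calls of Elk4 and Mapk9 were lost without 4 and 3 of the 12 livers. Egfr, the epidermal growth factor receptor, measured 12.13, 12.16 and 12.35 in KO livers on HFD, against 10.76, 10.65 and 10.90 in WT livers on HFD (1.45 ± 0.12, adjusted p = 2.86e-05). The WT chow livers had 11.94, 11.86 and 11.90, so Egfr, like Egr1, was lowest in WT HFD livers.

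Many CREB and fasting target genes were higher in KO livers on HFD. This list and the feeding list below were chosen with earlier results of these data known, so their counts are a description and no test. Of 21 measured, 10 were higher and 1 lower, where 3.89% and 6.62% of all genes were called, and the median was 0.39, against 0.00 over all genes. The 10 were Igfbp1, Irs2, Fgf21, Ppargc1a, Got1, Acot1, Cpt1a, Crem, G6pc and Cyp4a14, and between 7 and 10 genes passed when each liver was left out. The calls of Cyp4a14, G6pc and Crem were lost without 12, 6 and 4 of the 12 livers, each left out alone, and the other 7 held. Irs2, an insulin receptor substrate that CREB and FOXO factors induce in fasting, measured 9.69, 8.86 and 9.07 in KO livers on HFD, against 7.14, 7.07 and 7.44 in WT livers on HFD. Igfbp1, an insulin-repressed binding protein for insulin-like growth factors, measured 12.34, 10.93 and 11.83 in KO livers, against 9.59, 9.32 and 9.52 in WT livers. Neither pair of groups overlapped, and the differences were 1.99 ± 0.30 for Irs2 (limma, adjusted p = 0.00148) and 2.22 ± 0.30 for Igfbp1 (adjusted p = 0.000791).

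Fgf21, a fasting hormone, differed by 1.95 ± 0.30 (limma, adjusted p = 0.00152) and Ppargc1a, the coactivator of gluconeogenic genes, by 1.19 ± 0.18 (adjusted p = 0.0015). Pck1, the classical CREB target of gluconeogenesis, differed by 0.25 ± 0.07 and missed the threshold (adjusted p = 0.0532). Over the 12 livers Pck1 measured 13.31 to 13.63, G6pc 12.88 to 13.49 and Cyp4a14 13.57 to 13.94, near the highest value of 14.36. Whether signals this high narrowed their differences was not tested. Lpin1, a phosphatidate phosphatase induced in fasting, ran the other way, at -2.43 ± 0.46 (adjusted p = 0.00532). In WT livers on HFD against chow, 12 of the 21 were lower and 1 higher, where 2.94% and 4.02% of all genes were called. The 12 included Irs2 (-2.29 ± 0.30), Igfbp1 (-2.23 ± 0.30) and Pdk4 (-1.77 ± 0.23), and the higher one was Lpin1 (2.70 ± 0.46). The lower count was 6 without WT HFD liver 2 and 8 without WT chow liver 2, where 321 and 634 of 22180 genes were called lower. On chow and between diets in KO mice 0 of the 21 passed in limma, where 0.00902% and 0.243% of all genes did. At an unadjusted p under 0.05 there were 5 and 6 of the 21, against 7.02% and 8.51% of all genes.

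Genes induced by feeding and insulin were largely lower in KO livers on HFD. Of 15 measured, 9 were lower and 1 higher, where 6.62% and 3.89% of all genes were called, with a median of -0.64. Thrsp, a lipogenic regulator, measured 6.65, 6.23 and 5.80 in KO livers, against 9.78, 9.74 and 10.35 in WT livers (-3.72 ± 0.20, limma, adjusted p = 7.83e-07). Scd1, a fatty acid desaturase, differed by -2.05 ± 0.34 and Srebf1, the lipogenic transcription factor gene, by -0.91 ± 0.13 (adjusted p = 0.00244 and 0.000846). The exception was Acacb, the acetyl-CoA carboxylase that restrains fatty acid oxidation, at 0.58 ± 0.15 (adjusted p = 0.0293), a call lost without 4 of the 12 livers. In WT livers on HFD against chow, 5 were higher, Thrsp, Pklr, Ppp1r3b, Ppp1r3c and Srebf1, and 1 lower, Elovl6, where 4.02% and 2.94% of all genes were called. The count of higher genes was 3 without WT HFD liver 2, where 539 of 22180 genes were called higher, and Elovl6 lost its call without 4 of the 12 livers.

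**Figure D5:**
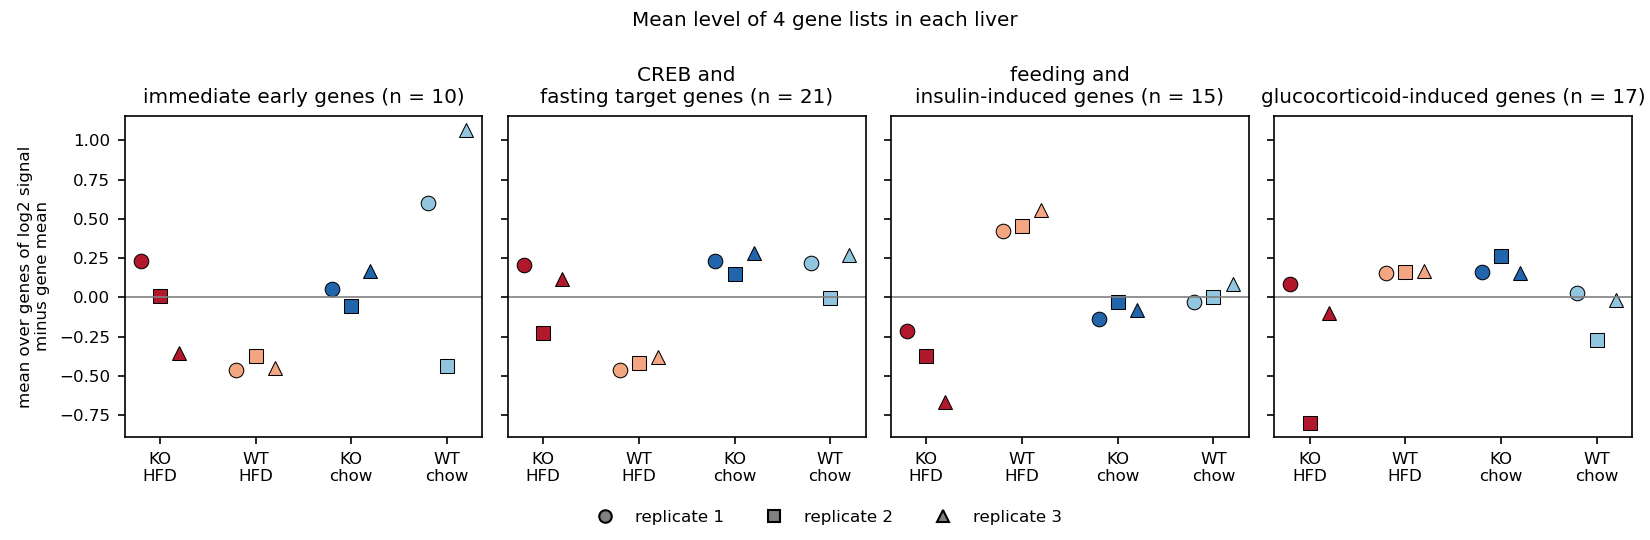
Mean over the genes of a list of log2 signal minus the gene's mean over the 12 livers, 1 point per liver, with the shape giving the replicate number. The fasting list lies at -0.46 to -0.38 in WT HFD livers and -0.22 to 0.20 in KO HFD livers, and the feeding list at 0.42 to 0.56 in WT HFD livers and -0.66 to -0.22 in KO HFD livers; the 10 immediate early genes spread most in WT chow livers.

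WT chow liver 2 was the lowest of its group for the fasting list as well, but with a narrower range: the mean of the centred values was -0.00 in that liver, 0.22 in WT chow liver 1 and 0.27 in WT chow liver 3. Other stimuli of immediate early genes were described through 3 further lists, where 3.89% of all genes were higher and 6.62% lower in KO against WT livers on HFD. Of 17 glucocorticoid-induced genes, 3 were lower in KO livers on HFD, Ddit4 (-1.69 ± 0.20), Tsc22d3 (-1.17 ± 0.14) and Zbtb16, and 1 was higher, Igfbp1, which also stands in the fasting list. The lower count was 6 at most and 2 at least when each liver was left out. Ddit4 and Tsc22d3 are classical glucocorticoid receptor targets, and their calls held without each liver in turn, whereas that of Zbtb16 was lost without 5 of the 12. Of 12 heat shock genes, 0 passed in that comparison in limma, with a median difference of -0.25, against 0.00 over all genes. Of 16 clock genes, 4 were lower, including Dbp, an output gene of the clock (-1.19 ± 0.26, adjusted p = 0.0125), and 2 higher, Arntl and Clock, of which Arntl was lost without any 1 of the 6 HFD livers.

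Cell type markers were read against the same 3.89% higher and 6.62% lower in KO against WT livers on HFD. Of 12 macrophage markers 1 was lower, Mpeg1 (-0.96 ± 0.13, limma, adjusted p = 0.00089), a share near that of all genes. Of 10 stellate cell markers 3 were lower, Lrat, Col1a1 and Col3a1, and of 9 endothelial markers 2 were lower, Cdh5 (-0.36 ± 0.08) and Lyve1 (-1.35 ± 0.37, lost without any 1 of the 6 HFD livers). Of 10 hepatocyte markers 2 were higher, Serpina1a (0.51 ± 0.09) and Cps1 (0.36 ± 0.07). Of 8 T and NK cell markers 1 was higher, Cd4 (0.80 ± 0.18, lost without WT HFD liver 3), and of 5 adipocyte markers 1 was lower, Car3 (-1.31 ± 0.29), which hepatocytes also express. B cell and cholangiocyte markers gave 0 of 5 calls each in limma, with median differences of -0.12 and 0.02, against 0.00 over all genes. The log2 of the summed macrophage signal was 13.2 to 13.6 in KO HFD livers and 13.4 to 13.8 in WT HFD livers, for stellate markers 13.1 to 13.3 in KO HFD livers and 13.3 to 13.5 in WT HFD livers, and for endothelial markers 13.3 to 13.4 in KO HFD livers and 13.5 in each WT HFD liver. No marker was at 0, since every probe set gives a signal on an array. Neutrophil markers gave 0 of 9 calls in limma, with a median difference of -0.13. The part of other cell types, of clock phase and of the feeding state in the differences of the 10 genes was not tested.

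The genes whose pattern over the 12 livers was most like the mean of the 10 were ranked by Pearson r among 18771 named genes. Pias4 (0.967), Kdm6b (0.960), Zfp36l1 (0.952), Fst (0.929) and Pcgf3 (0.928) came first, followed by Ppp1r15a, Chtop, Lonrf3, Ccnl1 and Erf (0.913 to 0.919). Zfp36l1, an mRNA decay factor, measured 11.22, 10.49 and 11.41 in WT chow livers and Ppp1r15a, a stress-induced phosphatase subunit, 7.31, 6.94 and 7.59. For both, WT chow liver 2 was the lowest of its group. After group means were removed, Pias4 still had an r of 0.98 and Zfp36l1 0.918. For Sik1 alone the closest were Tfr2 (0.955), Arhgap23 (0.953), Zfp511 (0.951), Vegfa (0.947) and G6pc (0.945), and for Fos alone Fzd5 (0.899), Sirt1 (0.873), Clcf1 (0.869), Cplane1 (0.866) and Pias4 (0.862). These correlations describe 12 livers that share groups and arrays, and have no test.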

How the data were processed

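Values were used as deposited: log2 signals of 41345 probe sets on 12 arrays, made by the authors with oligo per the submitters' processing notes, with version and normalization method not given in the sources used here. Deposited log2 values ran from 1.40 to 14.36 with 0 missing, and array medians from 5.58 to 5.70. Gene symbols came from the array annotation, updated by gene number through RefSeq names. Of the probe sets, 23521 carried 1 symbol (23328 matched by number), 1814 several and 16010 none, and genes with over 1 probe set (1082 of 22180) used the one with the highest mean. One limma model (version 3.58.1, R 4.3.3, lmFit and eBayes) held all 4 groups and was tested on simulated data, and p-values were adjusted by Benjamini-Hochberg over 22180 genes. A gene was called at adjusted p under 0.05. Precision is limited by 3 mice per group, and each SE uses a spread pooled over all 4 groups. The labels call the mice biological replicates.

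The 10 genes and the lists were chosen with earlier results of these data known. Genes were named by rule: the 10, list genes with the smallest p or past the threshold, genes ranked by likeness, and Ahnak. Relatives of the 10 and pathway or marker genes that did not pass (such as Sik2, Creb1, Crtc2, Fosb, Atf3, Nr4a2, Nr4a3, Pck1, Alb, Hnf4a and Ass1) were named after their values were seen. Alternatives were a replicate block, trend with robust eBayes, array weights, quantile normalization, centring on array medians, a filter on dim genes, the mean of probe sets, every probe set, the compared arrays only, a 1.5-fold minimum, and leaving out each mouse. Same-numbered mice did not deviate together across groups, with correlations from -0.064 to 0.08, against -0.131 to 0.162 for other pairs. The numbers were therefore not used as pairs in the main fit. This measure cannot exclude a pairing that affects some genes only.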

Additional observations from a re-analysis of the deposited data

Results flagged for a closer look

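Genes for which KO minus WT on HFD differed from KO minus WT on chow were found by the interaction term of the limma fit (adjusted p under 0.05 over all genes). Of the 10 immediate early genes, Egr1 was the 1 that met it, at 1.75 ± 0.34 (adjusted p = 0.0166). Its HFD value was 1.43 and its chow value -0.32.

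Among the other immediate early genes, Spry4 differed by -1.73 ± 0.16 (adjusted p = 0.000153) and Klf2 by -0.57 ± 0.13 (adjusted p = 0.0295). Among the fasting targets, Irs2 differed by 2.97 ± 0.43 (adjusted p = 0.00298), Igfbp1 by 2.20 ± 0.43 (adjusted p = 0.0171), Fgf21 by 1.96 ± 0.42 (adjusted p = 0.0258), Acot1, an acyl-CoA thioesterase gene, by 1.41 ± 0.26 (adjusted p = 0.0126) and Lpin1 by -3.68 ± 0.65 (adjusted p = 0.0105). Among the feeding genes, Thrsp differed by -3.94 ± 0.28 (adjusted p = 2.26e-05), Ppp1r3b, a glycogen-targeting phosphatase subunit gene, by -2.51 ± 0.39 (adjusted p = 0.00506) and Pklr, the liver pyruvate kinase gene, by -0.93 ± 0.20 (adjusted p = 0.0264).

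In the growth factor pathway, Egfr differed by 1.47 ± 0.17 (adjusted p = 0.000779) and Braf by 0.54 ± 0.11 (adjusted p = 0.0214). Among glucocorticoid-induced genes, Ddit4 differed by -2.26 ± 0.29 (adjusted p = 0.00133), Tsc22d3 by -1.57 ± 0.20 (adjusted p = 0.00136) and Fkbp5 by -1.34 ± 0.30 (adjusted p = 0.0326), and among clock genes Ciart, a circadian repressor gene, differed by -3.69 ± 0.45 (adjusted p = 0.000982). The calls of Klf2, Fkbp5, Fgf21, Pklr and Braf were lost without 8, 8, 7, 6 and 5 of the 12 livers, each left out alone. The other 12 held when each liver was left out. All use the same 12 livers, including the 3 WT HFD livers.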

How the results depend on the processing

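Egr1 kept its 3 calls, and Sik1 its call for HFD against chow in WT livers, under every alternative run and without each liver in turn. With trend and robust eBayes, the count of members higher in KO livers on HFD was 1 (Sik1 adjusted p = 0.0605). That fit called 1090 of 22180 genes higher. With every probe set tested the count was 1 (Sik1 adjusted p = 0.0574), where 835 of 41345 probe sets were called higher. Without each liver it was 1 to 2, where 523 to 870 genes were called higher. The count lower was then 0 to 1, where 977 to 1456 genes were called lower. Lower on HFD in WT livers were 4 with only genes above the median level tested (Nr4a1 and Ier3 added). That fit called 1002 of 11090 genes lower, against 652 of 22180 in the main fit. Without each liver the count was 2 to 7, where 318 to 714 genes were called lower. In the interaction the higher count was 2 with only genes above the median level (Sik1 added), where 584 of 11090 genes were called higher. Without each liver it was 1 to 2, where 162 to 314 genes were called higher. With the replicate block, members higher in KO livers on HFD were 2 and members lower on HFD in WT livers 3, with Ier3 added (adjusted p = 0.0473). It called 733 and 535 of 22180 genes in those directions. Array weights also gave 3 lower on HFD in WT livers, with Nr4a1 added, where 727 of 22180 genes were called lower. Centring on array medians turned Fos in KO against WT livers on HFD to -0.0188 and Jun in HFD against chow in KO livers to -0.0083. The cause of these moves was not tested. The interaction cannot be fitted from the compared arrays alone.

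Leaving out each liver turned the sign of 13 differences that had not passed. In KO against WT livers on HFD, Fos ran from -0.0887 to 0.18, Jun from -0.0257 to 0.14 and Ier3 from -0.10 to 0.052. In KO against WT livers on chow, Jun ran from -1.03 to 0.02, Junb from -0.82 to 0.0491, Ier2 from -0.51 to 0.17 and Dusp1 from -0.58 to 0.30. In HFD against chow in KO livers, Sik1 ran from -0.42 to 0.11, Jun from -0.19 to 0.28, Junb from -0.0259 to 0.41, Ier2 from -0.32 to 0.0313 and Nr4a1 from -0.38 to 0.75. In HFD against chow in WT livers, Dusp1 ran from -0.50 to 0.37. Precision is limited by 3 mice per group and by a spread pooled over all 4 groups. The SE of a difference between 2 groups was 0.67 for Nr4a1, 0.43 for Sik1, 0.40 for Jun, 0.39 for Dusp1 and 0.36 for Junb. The widely spread WT chow livers thus enter the SE of comparisons that do not include them. Without WT chow liver 2, Sik1 in KO against WT livers on HFD stayed at 1.72, with an SE of 0.26 (limma, adjusted p = 0.00213).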
